A study of Mus musculus with 8 samples.

Results

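The ribosomal protein pseudogenes are the 314 of 55401 genes in the count table whose symbol begins with Rpl or Rps and ends with -ps and a number. They were chosen by symbol alone, with 196 named after large subunit (Rpl) and 118 after small subunit (Rps) genes. Without the ending they give 59 different symbols. Of these, Rpl48 and Rpl7l1 are not in the list of cytosolic ribosomal protein genes used below. The counts come from 8 lines of mouse embryonic fibroblasts (MEFs), 4 of them SLMAP3-/- and 4 WT, each grown from a different embryo of strain B6C3F1 at E14.5 after the head and organs had been taken off. Every line of both genotypes was immortalized with SV40 large T antigen, and 1 stranded messenger RNA library was sequenced per line. In the SLMAP3-/- mice, Cre under a CMV promoter had removed the floxed exon 3 of Slmap, which encodes a tail-anchored membrane protein of the STRIPAK complex. The comparison asks which pseudogenes were counted in each line, which of them went from no count to a high count between lines, and whether that followed the genotype.

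Most ribosomal protein pseudogenes are processed pseudogenes: a messenger RNA was copied into DNA and inserted elsewhere in the genome, without introns and usually without a promoter of its own. Mammalian genomes hold many of them, because ribosomal protein messenger RNAs are short and abundant in the germ line. A recent copy differs from its functional gene by few bases, so a short sequencing read often matches both. Salmon, the program used here, divides such reads between the matching transcripts by an estimate of how much each one contributes, and the values are therefore called estimated counts. In these bulk cultures fewer cells with an RNA and less of it per cell cannot be told apart.

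The total estimated count was between 50952494 and 59854680 in SLMAP3-/- lines and between 49879059 and 63322486 in WT lines. Slmap had 2561, 1635, 2261 and 2069 counts in SLMAP3-/- replicates 1 to 4 and 7687, 7183, 7557 and 8267 in WT replicates 1 to 4, so that the genotypes did not overlap (log2 fold change -1.84, SE 0.11, edgeR adjusted p = 0.00119). The 9 fibroblast markers summed to at least 15636 CPM (counts per line scaled by TMM in edgeR, so that lines of different depth can be compared) in every line, and no line exceeded 44.9 CPM for 5 epithelial, 40.5 CPM for 4 endothelial or 4.90 CPM for 4 blood markers, with Hbb-bs at 0 in all lines. The 4 neural markers, which include Nes, summed to between 80.2 and 427 CPM.

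The bases that set a pseudogene apart are shown first. Whether the counts depend on them was not tested. Each transcript was cut into all of its stretches of 31 bases, and a stretch was called unique if no transcript of another gene contained it in the same orientation (GENCODE M21, GRCm38). Rpl36a-ps3, a copy of the Rpl36a paralog Rpl36al, has 31 unique stretches of 291. All of them cover 1 base, the substitution A125G, in which the base of the functional gene stands first, then the position from the 5′ end of the pseudogene, then the base of the pseudogene. Both sequences are given 5′ to 3′ with the differing base in capitals, Rpl36a-ps3 from chr6:136488901-136488961 (plus strand) and Rpl36al from chr12:69182982-69183042 (minus strand, coding sequence of exon 2).

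Rpl36a-ps3: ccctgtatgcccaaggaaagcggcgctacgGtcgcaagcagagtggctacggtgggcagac

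Rpl36al: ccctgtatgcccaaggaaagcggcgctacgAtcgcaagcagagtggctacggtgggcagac

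Rps18-ps3 has 58 unique stretches of 426, in 2 places that hold the substitutions G181C and C430T against Rps18. The first place is chr8:107263038-107263098 (minus strand) in the pseudogene and chr17:33952483-33952543 (minus strand, coding sequence of exon 3) in Rps18.

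Rps18-ps3: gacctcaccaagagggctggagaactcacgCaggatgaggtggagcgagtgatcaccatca

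Rps18: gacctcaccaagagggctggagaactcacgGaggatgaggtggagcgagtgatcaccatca

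Rpl15-ps6 has 31 unique stretches of 582, which cover the substitution C202A against Rpl15, here at chr15:52477997-52478057 (minus strand). Rpl15-ps2 has 62 of 583, over C320T, G321A and C352G, here at chr9:72061227-72061318 (plus strand). The matching parts of the Rpl15 transcript, from chromosome 14, lie in its coding sequence.

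Rpl15-ps6: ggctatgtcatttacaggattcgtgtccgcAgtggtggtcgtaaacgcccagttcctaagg

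Rpl15: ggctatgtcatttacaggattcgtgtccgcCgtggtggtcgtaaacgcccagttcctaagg

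Rpl15-ps2: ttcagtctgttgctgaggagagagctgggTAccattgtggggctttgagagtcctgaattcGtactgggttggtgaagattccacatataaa

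Rpl15: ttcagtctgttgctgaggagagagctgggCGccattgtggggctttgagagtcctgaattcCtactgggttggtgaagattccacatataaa

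Rpl3-ps1, whose share of the counts took separate levels among the lines, has 31 unique stretches of 1180, which cover C58A against Rpl3. It is shown at chrX:13202598-13202658 (plus strand), beside chr15:80082499-80082559 (minus strand, coding sequence of exon 2) of Rpl3.

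Rpl3-ps1: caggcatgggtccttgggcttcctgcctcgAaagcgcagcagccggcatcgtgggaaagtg

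Rpl3: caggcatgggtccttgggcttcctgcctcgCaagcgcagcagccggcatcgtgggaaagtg

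Rpl35a-ps2, Rpl35a-ps3, Rpl35a-ps4, Rpl35a-ps6 and Gm10243 have no unique stretch, because all 5 have the same 333 bases. They lie at chr1:181241988-181242320, chr17:29136972-29137304, chr2:108874926-108875258 and chr5:123255481-123255813 (minus strand) and chr6:48523518-48523850 (plus strand). Their sequence differs from Rpl35a, on chromosome 16, by 1 substitution, G156A, which is shown in capitals within chr1:181242135-181242195 (minus strand) of Rpl35a-ps2 and within the coding sequence of Rpl35a.

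Rpl35a-ps2: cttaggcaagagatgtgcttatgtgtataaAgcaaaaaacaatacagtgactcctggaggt

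Rpl35a: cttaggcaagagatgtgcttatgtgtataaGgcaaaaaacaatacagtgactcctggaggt

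The remaining pseudogenes that went from 0 to 100 or more counts also had no unique stretch. Rpl27-ps3, of 411 bases on chromosome 18, is identical to part of Rpl27 and of the pseudogene Gm11518. Rpl15-ps3, at chr9:22185607-22186221 (minus strand), is identical to part of Rpl15.

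Between 120 and 137 pseudogenes had an estimated count above 0 in each line. The numbers were 137, 126, 136 and 130 in SLMAP3-/- replicates 1 to 4 and 134, 136, 120 and 123 in WT replicates 1 to 4, or 132.25 ± 5.19 and 128.25 ± 7.93 (SD, n = 4 each), so the genotypes overlapped. Most of these counts were low. At least 10 counts were reached by 51 to 66 pseudogenes in each line, and at least 100 by 22 to 31.

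Of the 314, 87 were listed at 0 in all lines, 66 had a count in all 8 lines and 51 had one in a single line. In 33 the counts were in SLMAP3-/- lines alone and in 31 in WT lines alone, which is 28.2% of the 227 with any count, beside 22.4% over all genes with a count. The median of the highest count in these 64 was 1.02, close to a single read. No pseudogene was counted in all 4 lines of one genotype and in no line of the other. The functional genes with most pseudogenes were Rpl31 and Rps12, with 24 each, and of these 48 only 1 reached 100 counts in a line.

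Together the pseudogenes took 0.0912% to 0.195% of a line's total, beside 3.11% to 4.19% for the 80 cytosolic ribosomal protein genes. Their summed level was 1606, 930, 1758 and 1661 CPM in SLMAP3-/- replicates 1 to 4 and 1792, 2077, 1334 and 1354 CPM in WT replicates 1 to 4. SLMAP3-/- replicate 2 was the lowest, and the ranges of the genotypes overlapped (1489 ± 378 and 1639 ± 361, SD, n = 4 each, a log2 difference of -0.16 between the means). Without SLMAP3-/- replicate 2 the difference was 0.056. Rps2-ps10 alone made up 59.3% to 65.8% of the sum, and without it the sums were 581 ± 154 and 587 ± 163 CPM.

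The pseudogenes that switched numbered 9, that is, they were listed at 0 in at least 1 line and at 100 or more counts in at least 1 other. These 9 are 2.87% of the 314 and 25.7% of the 35 that reached 100 counts in any line. Over all genes the shares were 0.227% of 55401 and 0.983% of the 12824 that reached 100 counts. None of the 80 ribosomal protein genes switched, and neither did any of 1302 other genes with a -ps symbol, of which 49 reached 100 counts. These shares are descriptions, and no test was made of the difference. The plot of counts of the switching pseudogenes shows each value by line.

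**Figure D1:**
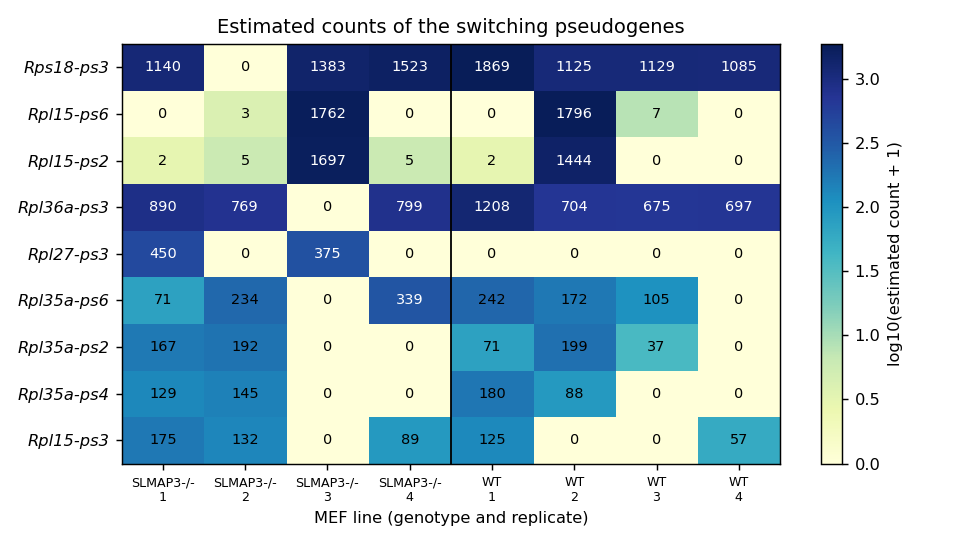
Estimated counts of the 9 switching pseudogenes (rows) in each of 8 MEF lines (columns, SLMAP3-/- replicates 1 to 4 left of the line and WT replicates 1 to 4 right of it). The colour gives log10 of the count plus 1 and the number is the rounded count; zeros fall in lines of both genotypes, and 8 of the 9 reach 100 counts in lines of both.

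A pair of pseudogenes was counted in 7 lines and listed at 0 in 1. Rps18-ps3, a copy of the small subunit gene Rps18, had 1140, 0, 1383 and 1523 counts in SLMAP3-/- replicates 1 to 4 and 1869, 1125, 1129 and 1085 in WT replicates 1 to 4. Rpl36a-ps3 had 890, 769, 0 and 799 counts in SLMAP3-/- lines and 1208, 704, 675 and 697 in WT lines. The single zero was in SLMAP3-/- replicate 2 for the former and in SLMAP3-/- replicate 3 for the latter. In the other 7 lines the ranges of the genotypes overlapped for both.

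The Rpl15 pseudogenes, copies of a large subunit gene, gave the opposite picture, with high counts in few lines. Rpl15-ps6 had 0, 3, 1762 and 0 counts in SLMAP3-/- replicates 1 to 4 and 0, 1796, 7 and 0 in WT replicates 1 to 4. Rpl15-ps2 had 2, 5, 1697 and 5 counts in SLMAP3-/- lines and 2, 1444, 0 and 0 in WT lines. Both were thus high in the same pair of lines, SLMAP3-/- replicate 3 and WT replicate 2, 1 of each genotype. The 2 pseudogenes lie on chromosomes 15 and 9, and their unique stretches cover different bases. In those lines Rpl15-ps6 held 5.84% and 6.07%, and Rpl15-ps2 5.63% and 4.94%, of the summed count of the pseudogene and Rpl15. Rpl15-ps3, with no base of its own, had 175, 132, 0 and 89 counts in SLMAP3-/- lines and 125, 0, 0 and 57 in WT lines, and its zeros included the lines in which the other Rpl15 copies were high.

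The identical Rpl35a copies, named after another large subunit gene, traded places from line to line. Rpl35a-ps2 had 167, 192, 0 and 0 counts in SLMAP3-/- replicates 1 to 4 and 71, 199, 37 and 0 in WT replicates 1 to 4. Rpl35a-ps4 had 129, 145, 0 and 0 counts in SLMAP3-/- lines and 180, 88, 0 and 0 in WT lines. Rpl35a-ps6 had 71, 234, 0 and 339 counts in SLMAP3-/- lines and 242, 172, 105 and 0 in WT lines. In SLMAP3-/- replicate 3 and WT replicate 4 all 3 were at 0. Rpl35a-ps3, which did not switch, had 322, 123, 821 and 284 counts in SLMAP3-/- lines and 339, 328, 286 and 510 in WT lines, and was highest in the same pair of lines. The submitters' names for this pair share the number 10, whose meaning is not given in the sources used here, and its part in the counts was not tested. Gm10243, the fifth copy of the sequence, was at 0 in all lines.

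**Figure D2:**
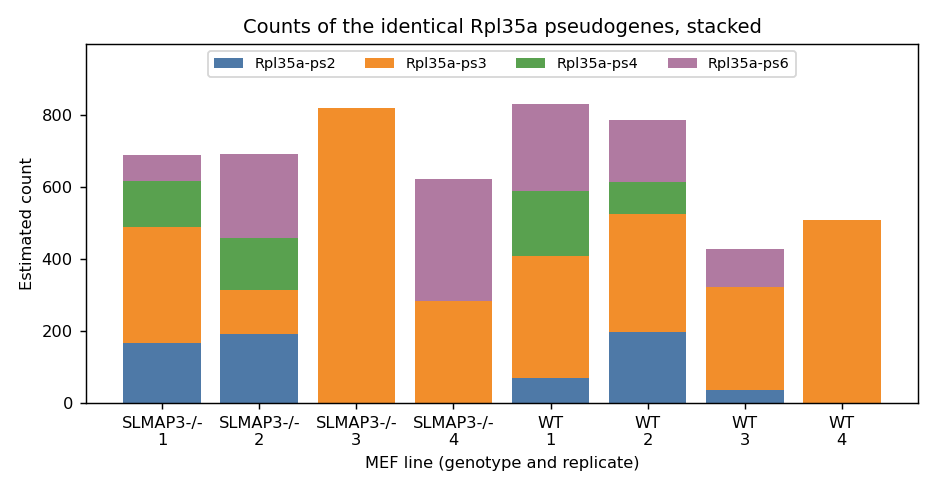
Estimated counts (vertical axis) of 4 Rpl35a pseudogenes with identical sequence, stacked in each of 8 MEF lines (horizontal axis, genotype and replicate). In SLMAP3-/- replicate 3 and WT replicate 4 the whole bar is Rpl35a-ps3, with 821 and 510 counts, while in SLMAP3-/- replicate 1 the bar holds all 4 copies.

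Rpl27-ps3 was the one switching pseudogene counted in a single genotype, with 450, 0, 375 and 0 counts in SLMAP3-/- replicates 1 to 4 and 0 in every WT line. Gm11518, which contains the same bases, had 202, 301, 0 and 680 counts in SLMAP3-/- lines and 849, 498, 390 and 425 in WT lines, and its only zero was in SLMAP3-/- replicate 3. Rpl27, the functional large subunit gene, had between 10316 and 18023 counts, so that Rpl27-ps3 held 2.95% and 2.50% of the summed count of the pair in the lines where it was counted.

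The coefficient of variation over the 8 lines is given for each switching pseudogene and for sums over its copies, as a description: the choice of these pseudogenes fixes a high value for each alone, and no test was made. Copies were taken as genes that share at least 70% of a pseudogene's 31-base stretches, a limit chosen after the values were seen. The coefficient was 110% for Rpl35a-ps2, 111% for Rpl35a-ps4 and 85.5% for Rpl35a-ps6, and 20.5% for the sum of 7 pseudogenes. The 7 are the 5 of identical sequence, with Rpl35a-ps5 and Gm10247, which are not identical to them but pass the limit. This sum was 696, 696, 830 and 633 counts in SLMAP3-/- replicates 1 to 4 and 841, 799, 439 and 515 in WT replicates 1 to 4, or 12.9 ± 0.92 and 11.5 ± 3.54 CPM (SD, n = 4 each), with overlapping ranges. For Rpl27-ps3 the coefficient was 187%, for its sum with Gm11518 33.3% and with Rpl27 added 14.9%.

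For Rpl15-ps6 the coefficient was 186% alone and 160% in the sum with its 5 pseudogene copies, in which SLMAP3-/- replicate 3 and WT replicate 2 had 3474 and 3267 counts and the other lines between 72 and 185. With Rpl15 included it was 15.7%. Rpl15-ps2 was at 184% alone and 160% in such a sum, while Rpl15-ps3 went the other way, from 95.3% alone to 160% in the sum with its pseudogene copies, which include Rpl15-ps6 and Rpl15-ps2. For Rps18-ps3 the coefficient was 45.4% alone and 13.9% in the sum with Rps18, Rps18-ps5 and Rps18-ps6. For Rpl36a-ps3 it was 44.1% alone and 14.1% in the sum with Rpl36al and Gm49383. Rpl15, Rpl27 and Rpl36al hold most of each sum that includes them, so the coefficient of that sum is close to their own. Rps18 had a smaller part of its sum, 13251 of 30889 counts in SLMAP3-/- replicate 1, and its own coefficient was 23.4%. Rps18-ps3 had only 1140 of the same 30889 counts. A zero of Rps18-ps3 can therefore change this sum little, and the lower coefficient of the sum says nothing about that zero. Whether the division of reads between copies sets the zeros was not tested.

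The switching did not follow the genotype. No switching pseudogene was at 100 or more counts in all lines of one genotype and at 0 in all lines of the other, and none of the 126 switching genes of the whole table was either. Of the 9, 1 reached 100 counts in lines of 1 genotype only, Rpl27-ps3, beside 42.1% of the 126. The number of the 9 at 100 or more counts was 6, 5, 4 and 3 in SLMAP3-/- replicates 1 to 4 and 5, 6, 3 and 2 in WT replicates 1 to 4. The number at 0 was 1, 2, 5 and 4 in SLMAP3-/- lines and 2, 2, 4 and 6 in WT lines, and both numbers overlapped between the genotypes. Single lines bear on the number of pseudogenes that reached 100 counts in lines of 1 genotype only. That number was 3 without SLMAP3-/- replicate 3, 3 without WT replicate 1 and 4 without WT replicate 2.

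At the limit of 100 counts, the members nearest to it on the inside were Rpl15-ps3 and Rpl35a-ps4, with highest counts of 175 and 180. Among pseudogenes with a zero, Rpl30-ps10 came nearest from the outside with 59 counts, then Rps2-ps13 with 40 and Rps15a-ps6 with 36. Rpl34-ps1 reached high counts but never 0, and its lowest count was 17.

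The other 26 of the 35 pseudogenes at 100 or more counts were never at 0, and 17 of the 35 were at 100 or more in all 8 lines. Their highest CPM was 1.39 to 110-fold their lowest, with a median of 2.28, beside a median of 1.54 and a maximum of 4.86 over the 80 ribosomal protein genes. By less than 2-fold varied 10 of them, such as Rpl9-ps6 with 111 to 151 counts. More than 5-fold was reached by 6 of them: Rpl34-ps1, Rpl3-ps1, Rps26-ps1, Rps7-ps3, Rpl35a-ps3 and Rps27a-ps2. Over all 12698 genes that reached 100 counts and were never at 0, 8831 varied by less than 2-fold and 1306 by more than 5-fold, with a median of 1.58. The 6 were singled out after their values were seen.

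Rps2-ps10, a copy of the small subunit gene Rps2 in an intron of Pde6a on the opposite strand, had the largest share of the reads. It had 57856, 28449, 64916 and 53103 counts in SLMAP3-/- replicates 1 to 4 and 72645, 65828, 46138 and 52415 in WT replicates 1 to 4. SLMAP3-/- replicate 2 was the lowest of the 8, and the genotypes overlapped. Of the summed count of Rps2-ps10 and Rps2, the pseudogene held 52.0% to 55.2% in 7 lines and 27.6% in SLMAP3-/- replicate 2, where Rps2 itself had 74577 counts, the most of the 8 lines.

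Rps18-ps6 was also lowest in SLMAP3-/- replicate 2. Its counts were 11794, 5364, 13236 and 11999 in SLMAP3-/- replicates 1 to 4 and 14449, 12598, 8858 and 10287 in WT replicates 1 to 4. Its share of the summed count with Rps18 was 46.8% to 48.4% in 7 lines and 22.7% in SLMAP3-/- replicate 2, the line with the most Rps18 counts (18246) and none of Rps18-ps3. Rps18-ps5, another copy, had 4704, 3570, 5477 and 5171 counts in SLMAP3-/- lines and 5728, 5605, 3353 and 4224 in WT lines, and there WT replicate 3 was the lowest.

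Rpl3-ps1, a copy of the gene for the large subunit protein next to the peptidyl transferase centre, had 4505, 246, 9395 and 4198 counts in SLMAP3-/- replicates 1 to 4 and 5348, 8006, 2980 and 3492 in WT replicates 1 to 4. Its share of the summed count with Rpl3 fell into separate levels: 0.583% in SLMAP3-/- replicate 2, 9.04% to 9.80% in 5 lines, and 18.4% and 18.1% in SLMAP3-/- replicate 3 and WT replicate 2. The last pair are the lines in which Rpl15-ps6 and Rpl15-ps2 were high, with at most 7 counts of either in any other line. The sum of Rpl3-ps1 and Rpl3 lay between 609 and 954 CPM over the lines, while Rpl3-ps1 alone varied 31.4-fold.

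Rps26-ps1, in an intron of Wwp2 on the opposite strand and 176 kb from Rps18-ps3 on chromosome 8, had 3217, 1313, 1651 and 2535 counts in SLMAP3-/- replicates 1 to 4 and 159, 1542, 1103 and 138 in WT replicates 1 to 4. Its share of the summed count with Rps26, a small subunit gene, was 13.0% and 11.1% in SLMAP3-/- replicates 1 and 4, 6.19% to 6.48% in SLMAP3-/- replicates 2 and 3 and WT replicates 2 and 3, and 0.546% and 0.677% in WT replicates 1 and 4. The levels near 6% thus occurred in both genotypes, the highest in SLMAP3-/- lines and the lowest in WT lines.

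Rpl34-ps1 had 1743, 17, 1547 and 1493 counts in SLMAP3-/- replicates 1 to 4 and 2189, 1552, 2025 and 1247 in WT replicates 1 to 4. It held 0.161% of the summed count with Rpl34 in SLMAP3-/- replicate 2, 25.9% in WT replicate 3 and 12.6% to 15.1% in the other 6 lines. Rps7-ps3, on the X chromosome, had 2085 and 1318 counts in SLMAP3-/- replicate 3 and WT replicate 4, and between 172 and 342 in the others. The names of that pair of lines share a number, whose part in the counts was not tested. Rpl15-ps6, Rpl15-ps2 and the share of Rpl3-ps1 were instead high in SLMAP3-/- replicate 3 and WT replicate 2. Rps16-ps2, which is identical to part of Rps16, varied little, with 1087, 806, 698 and 730 counts in SLMAP3-/- lines and 956, 796, 559 and 595 in WT lines.

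**Figure D3:**
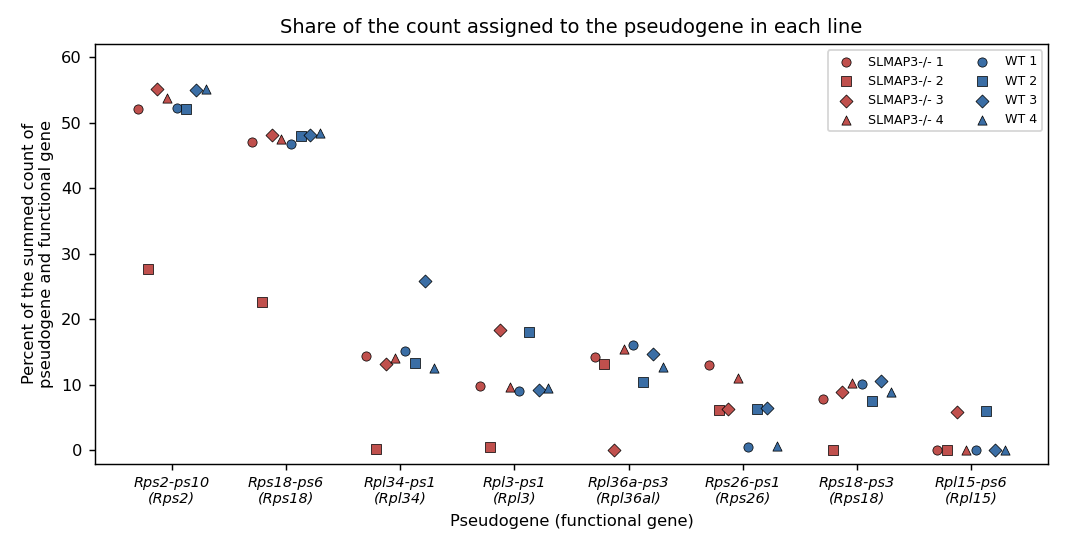
Percent of the summed estimated count of a pseudogene and its functional gene that was assigned to the pseudogene (vertical axis), for 8 pseudogenes with the functional gene in brackets (horizontal axis). Each point is 1 MEF line, with colour for genotype and shape for replicate; SLMAP3-/- replicate 2 lies at 27.6% for Rps2-ps10 and 22.7% for Rps18-ps6, where the other 7 lines lie between 46.8% and 55.2%.

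In the test of SLMAP3-/- against WT, none of the pseudogenes passed the threshold. Of the 314, 61 passed the filter on low counts and were tested in edgeR's quasi-likelihood fit of all 15461 tested genes. With Benjamini-Hochberg adjustment over all of them, 0 had an adjusted p under 0.05 (0.00647% of all tested genes, which is Slmap alone) and 1 had an unadjusted p under 0.05 (1.81% of all tested genes). That 1 was Rpl31-ps17, with 23, 20, 16 and 22 counts in SLMAP3-/- replicates 1 to 4 and 10, 13, 14 and 8 in WT replicates 1 to 4. Its log2 fold change was 0.86 with an SE of 0.34 and an edgeR adjusted p of 1.00. None of the 61 had genotypes whose CPM did not overlap, beside 1.25% of all tested genes.

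The log2 fold changes of the 61 had a median of 0.055, with 38 above and 23 below 0, and ran from -1.20 to 1.50. Over all tested genes the median was -0.0014, with 7647 above and 7814 below 0. Their SE had a median of 0.38, beside 0.20 over all tested genes. The highest was Rps26-ps1 at 1.50 (SE 0.80) and the lowest Rps15a-ps6 at -1.20 (SE 0.90), which had at most 36 counts in a line, and neither passed (edgeR adjusted p = 1.00 for both). Rpl15-ps3 at 1.29 (SE 1.61) and Rpl17-ps5 at 1.12 (SE 1.23) came next at the upper end, and Rps13-ps1 at -0.80 (SE 0.42) and Rpl34-ps1 at -0.57 (SE 0.87) at the lower end. Of the pseudogenes with most reads, Rps2-ps10 had a log2 fold change of -0.21 (SE 0.22), Rps18-ps6 of -0.12 (SE 0.24) and Rps18-ps5 of 0.017 (SE 0.18).

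**Figure D4:**
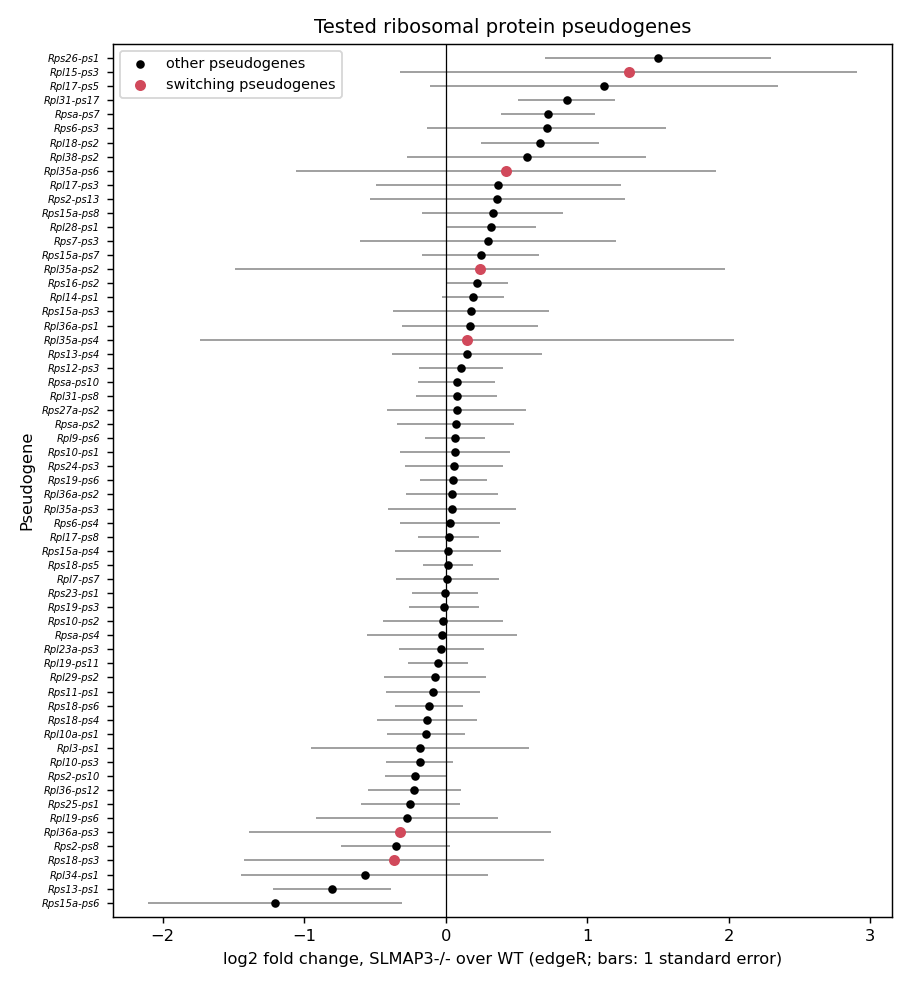
Log2 fold change, SLMAP3-/- over WT, of the 61 tested pseudogenes (horizontal axis, edgeR, bars are 1 standard error), ordered by value (vertical axis). Switching pseudogenes are in red and have bars of 1.06 to 1.89, and the values run from -1.20 to 1.50 around a median of 0.055.

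Of the switching pseudogenes 6 passed the filter and 3 did not (Rpl27-ps3, Rpl15-ps2 and Rpl15-ps6). The 6 had log2 fold changes between -0.37 (Rps18-ps3) and 1.29 (Rpl15-ps3), with SEs of 1.06 to 1.89, and none passed. The direction of 5 of the 6 turned when 1 line was left out. For Rps18-ps3 the value without SLMAP3-/- replicate 2 was 0.052, and for Rpl36a-ps3 (-0.32 with all lines) it was 0.091 without SLMAP3-/- replicate 3. For the Rpl35a copies the turn came without SLMAP3-/- replicate 4 (Rpl35a-ps6, -0.23), without SLMAP3-/- replicate 1 or 2 or WT replicate 4 (Rpl35a-ps2, -0.55 at the lowest) and without SLMAP3-/- replicate 1 or 2 or WT replicate 3 or 4 (Rpl35a-ps4, -0.63 at the lowest). Rps18-ps6 and Rpl3-ps1 turned without SLMAP3-/- replicate 2, to 0.078 and 0.21. Rpl3-ps1 also turned without WT replicate 2, to 0.23, and Rps18-ps5 without SLMAP3-/- replicate 4 (-0.066), WT replicate 3 (-0.098) or WT replicate 4 (-0.050).

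DESeq2, run as the alternative, called 1 of the 224 pseudogenes to which it gave an adjusted p (0.0325% of all genes with one). The call was Rpl27-ps3, with its 2 counted lines (DESeq2 adjusted p = 4.37e-08), and no fold is given because all WT lines were at 0. edgeR without the filter on low counts gave it an adjusted p of 0.786. Summed with Gm11518 it was at 9.09 ± 3.62 CPM in SLMAP3-/- lines and 9.48 ± 3.02 in WT lines (SD, n = 4 each).

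The 80 functional genes of the cytosolic ribosome were all tested, and 0 had an edgeR adjusted p under 0.05, with 1 at an unadjusted p under 0.05 (Rpl29, log2 fold change 1.14, SE 0.43, adjusted p = 1.00). Their median log2 fold change was 0.050, with 72 above and 8 below 0, beside 7647 above and 7814 below over all tested genes. Their share of a line's total was 4.19%, 4.04%, 3.15% and 3.11% in WT replicates 1 to 4. In SLMAP3-/- lines it was 3.74% to 3.95%, within the range of the WT lines. The functional genes of the switching pseudogenes had values of 0.031 (SE 0.14) for Rpl35a, 0.044 (SE 0.16) for Rpl15, 0.062 (SE 0.15) for Rpl27, 0.26 (SE 0.20) for Rps18 and -0.017 (SE 0.15) for Rpl36al, the gene closest to Rpl36a-ps3.

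In the medians, pseudogenes with higher counts had less sequence of their own. Over all 314 the median share of unique 31-base stretches was 38.7%. It was 81.9% in the 87 listed at 0 in all lines, 41.9% in the 139 with a highest count above 0 and below 10, 21.1% in the 53 from 10 to below 100 and 3.21% in the 35 at 100 or more, of which 13 had no unique stretch. Identity to the functional gene of the same symbol had medians of 89.5%, 95.7%, 98.3% and 99.5% in the same order. These are descriptions across genes that share families and reads, and no test was made.

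**Figure D5:**
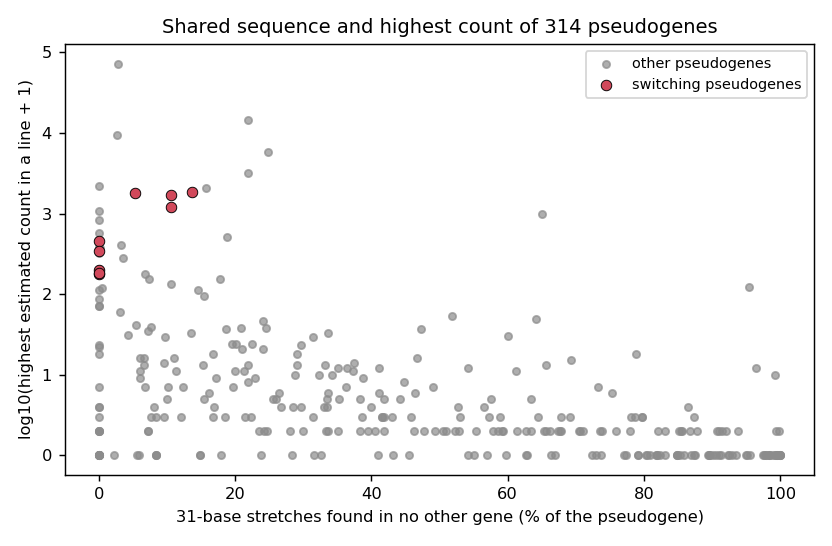
Share of a pseudogene's 31-base stretches found in no other gene (horizontal axis, percent) against log10 of its highest estimated count in any of 8 lines plus 1 (vertical axis), with 1 point for each of 314 pseudogenes. The 9 switching pseudogenes, in red, lie at 0% to 13.6%.

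The 9 switching pseudogenes had 0% to 13.6% unique stretches and at most 62 of them, and 5 had none (Rpl27-ps3, Rpl15-ps3 and 3 Rpl35a copies). The 26 others at 100 or more counts had a median of 3.37%, with a range from 0% to 95.4%. The annotated body began with ATG and had its first in-frame stop within its last 2 codons in 6 of the 9, in 9 of the 26 and in 97 of the 314. A body annotated with bases before the ATG or well past the stop does not meet this, whatever its frame. Rps18-ps5 and Rps18-ps6, listed as protein coding, did not meet it. Rpl36a-ps3 had 87.5% identity to Rpl36a, the gene of its symbol, and 1 difference from Rpl36al over 321 bases. Of the 9, 2 overlapped an annotated gene, both in an intron on the opposite strand: Rpl35a-ps6 in Wdr66 and Rpl15-ps2 in Tcf12. Among all 314, 100 overlapped a gene, 36 of them on the same strand.

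GENCODE M21 lists 296 of the 314 as processed pseudogenes and 9 as transcribed processed pseudogenes. It lists 8 as protein coding, among them Rps18-ps5 and Rps18-ps6, and 1, Rps18-ps4, as a lincRNA with an exon that Rps18-ps6 overlaps on the opposite strand.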

How the data were processed

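RNA from 4 SLMAP3-/- and 4 WT MEF lines was measured with 1 library per line. The authors assigned reads to GENCODE M25 transcripts (GRCm38) with Salmon and deposited length-scaled estimated counts per gene, not normalized between lines. Their deposited table of the comparison by DESeq2 (mean, log2 fold change, standard error and p-values) was not used. The versions of Salmon and DESeq2 are not given in the sources used here.

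Groups were taken from the genotype labels. Estimated counts were rounded and tested in R 4.3.3 with edgeR 4.0.16 (filterByExpr with a minimum count of 10, TMM, glmQLFit and glmQLFTest), with Benjamini-Hochberg adjustment over 15461 genes and a threshold of 0.05. SEs were derived from the fold change and the F statistic. CPM are TMM-normalized. DESeq2 1.42.0 was an alternative, beside size factors, other filters, no rounding, robust fitting, a replicate block and leaving out each line. edgeR and DESeq2 were tested on simulated data first. Totals of 49879059 to 63322486 set the counting precision. As each count is an estimate of divided reads, no counting interval is given.

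Sequences, types and positions came from GENCODE M21, of the same build, by gene ID, and 313 of 314 pseudogenes have the same ID version in both. Alignments used edlib 1.3.9.post1. By rule, the pseudogenes named are those that switched, the 8 with the highest mean CPM and those past the threshold. The rule adds the 3 highest and 3 lowest fold changes and up to 10 whose genotypes did not overlap. Others are named outside this rule, as copies, as members near a limit, by their variation between lines or by an unadjusted p (Rpl31-ps17). The members, lists and this rule were chosen with earlier results of these data known, and the copies and shares of pairs after values were seen.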

Additional observations from a re-analysis of the deposited data

Results flagged for a closer look

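Dixon's criterion for 4 samples set 6 values apart from the other 3 lines of their genotype, out of 37 groups examined. Chance flags about 1 in 20 groups, but this is no yardstick here, because the groups are those of the named pseudogenes, and 5 of the 6 values belong to pseudogenes named for going from 0 to 100 or more counts between lines. Rpl15-ps6 was at 28.3 CPM in SLMAP3-/- replicate 3 (others 0 to 0.051) and at 34.8 CPM in WT replicate 2 (others 0 to 0.138). Rpl15-ps2 was at 27.3 CPM in SLMAP3-/- replicate 3 (others 0.0296 to 0.110) and at 27.9 CPM in WT replicate 2 (others 0 to 0.0281). Rpl36a-ps3 was at 0 CPM in SLMAP3-/- replicate 3 (others 15.3 to 15.4). Rps2-ps10 was at 569 CPM in SLMAP3-/- replicate 2 (others 1002 to 1043). The cause of these values was not tested.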

How the results depend on the processing

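Of the alternatives to the edgeR test, the replicate block gave 0 and DESeq2 11 called genes over the whole table in place of 1, leaving out single lines gave 1 each time, and DESeq2 called 1 pseudogene in place of 0, Rpl27-ps3. The median log2 fold change of the tested pseudogenes stayed between -0.058 and 0.16 when single lines were left out. The number of switching pseudogenes was 9, 10 with 50 counts as the limit, 6 with 200 and 8 to 9 without single lines. Those at the limit in 1 genotype only numbered 1, 2 with 50 counts as the limit and 1 to 4 without single lines. A minimum of 10 counts lowered the median number of pseudogenes counted per line from 132 to 61.5. Without the filter on low counts, 1 pseudogene, Rpsa-ps1 with at most 6 counts, had genotypes that did not overlap, in place of 0. The log2 difference of summed CPM was -0.25 to 0.056 without single lines. Of 231 alternative fold changes of 16 named pseudogenes, 213 kept their direction and 18 in 8 pseudogenes turned, and none had an adjusted p below 0.786. The replicate block turned Rpl35a-ps6 to -0.47 and Rpl35a-ps2 to -0.64. Without single lines the values spanned -0.71 to 0.052 for Rps18-ps3, -0.50 to 0.091 for Rpl36a-ps3, -0.23 to 0.84 for Rpl35a-ps6, -0.55 to 1.44 for Rpl35a-ps2, -0.63 to 1.18 for Rpl35a-ps4, -0.23 to 0.078 for Rps18-ps6, -0.098 to 0.16 for Rps18-ps5 and -0.71 to 0.23 for Rpl3-ps1. Same-numbered replicates come from different embryos, and their deviations had correlations of -0.16, 0.058, 0.19 and -0.0032. A number shared by the submitters' line names links 1 pair only, SLMAP3-/- replicate 3 with WT replicate 4, which is too few for a block. The cause of these changes was not tested.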
